A study of Mus musculus with 6 samples.

Results

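The Myc, Max and Mxd network is a family of transcription factors that share 1 dimerization partner, Max. It was followed here through 10 genes, Myc, Mycn, Mycl (named Mycl1 in the array design), Max, Mxd1, Mxd3, Mxd4, Mxi1, Mnt and Mga, by taking all 12 probes that carried one of these names or a synonym. The array holds 34950 names on 55660 probes. A filter on dim probes kept a probe if every array of one group or of the other read it as well above background, which left 24836 probes and 18228 names. Among the members, 8 genes with 9 probes passed this filter. The genes were chosen by their family, with their log2 differences between the groups already known and in view, so these differences are described and not tested.

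The RNA came from mouse fetal liver erythroid progenitors, the precursors of red cells, isolated from embryos at E14.5, infected with retrovirus and cultured for 3 days with dexamethasone, erythropoietin and medium conditioned by cells that make kit ligand. The 3 shExosc8 samples received a short hairpin RNA against Exosc8, a core subunit of the RNA exosome, and the 3 shControl samples a hairpin against luciferase, which mouse cells lack. Infection, medium and time in culture were common to both groups, and each sample was RNA of a whole culture. Strain, genotype, the share of cells infected and the origin of replicates (separate animals or cultures) are not given in the sources used here, so the spread behind each p-value is that of these samples and may be only technical. By its title, the series asks what Exosc8 regulates in fetal liver erythroid cells.

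Myc proteins pair with Max and bind the E-box sequence, where they recruit histone acetyltransferases and raise transcription of genes for growth, ribosome production and cell division. Mxd proteins, Mxi1 and Mnt also pair with Max, bind the same sites and recruit the Sin3 corepressor with its histone deacetylases, so they oppose Myc. Mga is a large protein that pairs with Max as well and is part of a Polycomb complex. In the red cell lineage Myc is known to support the division of progenitors and to fall as they mature, while Mxd1 is known to rise as blood cells and other cells stop dividing and differentiate.

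Levels are given as the log2 of the spot signal minus the array's 75th percentile, so 0 is the signal of a probe at that percentile. Signals of different probes depend on the probe and are not set against each other. Exosc8, the targeted gene, stood at 0.47, 0.45 and 0.97 on shExosc8 arrays 1, 2 and 3 and at 1.75, 1.74 and 1.83 on the shControl arrays. Its mean was 45.3% of the control mean, a log2 difference of -1.14 ± 0.16 (SE, n = 3 per group, limma adjusted p = 0.00554). With the slide column as a block the difference was -1.03 and did not pass (limma adjusted p = 0.124). Arrays of 1 group correlated at r = 0.985 to 0.997 and arrays of different groups at 0.953 to 0.978, across probes, which are not independent replicates. On shControl array 2, 67.3% of spots were well above background, against 43.1% to 49.3% on the other arrays. All arrays lay on 1 slide, shExosc8 in 1 row and shControl in the other, so row and group cannot be told apart.

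Across the network, Mycn and Mxd1 were higher and Max and Mga were lower in shExosc8 among the 4 of 8 members past the threshold (adjusted p under 0.05 in limma over all names). Of all 18228 names 29.8% passed it, 16.0% higher and 13.8% lower, and nothing is read from the members' count because the choice of genes used this contrast. Mycn passed the filter on dim probes only through its shExosc8 arrays and so had to differ. In 5 of the 8 members the 3 arrays of one group lay entirely on one side of the other group, as did 51.6% of all names. Mxd1 kept its call whichever 1 of the 6 arrays was left out. Mycn also passed in each of those fits, from which nothing is read because of how it entered them. Max and Mga passed in 1 of those 6 fits each, the one without shExosc8 replicate 3, where 5 members passed in all. Without any other single array 2 members passed. Such calls describe how far a value rests on single arrays or settings. They are no test of Mxd1, Max or Mga, which were chosen with this contrast known.

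**Figure D1:**
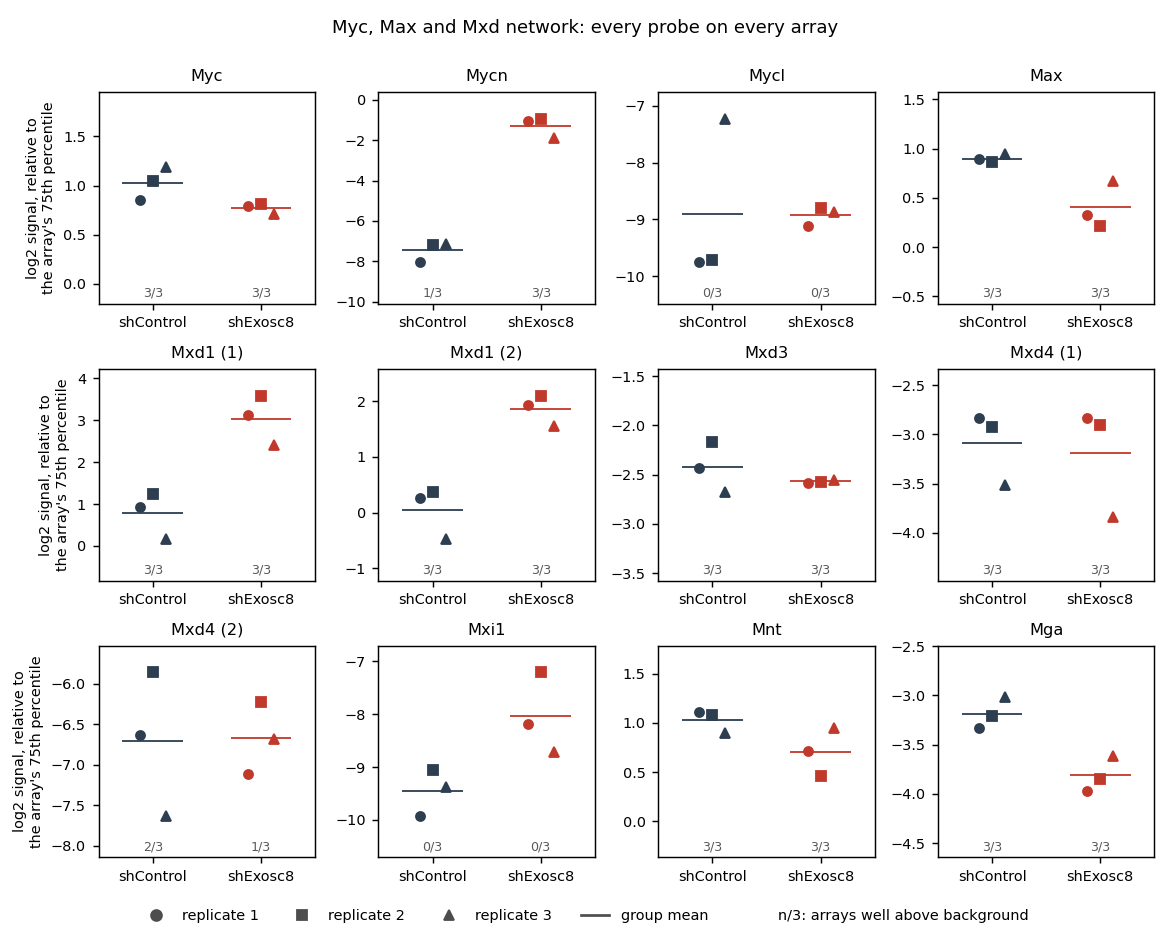
Log2 signal of each of the 12 probes on each of the 6 arrays (vertical axis, relative to the array's 75th percentile, with a different range in each panel), shControl on the left and shExosc8 on the right of each panel. Symbols mark replicates, lines mark group means, and the fraction under each group gives how many of its 3 arrays were well above background. Mycn and both Mxd1 probes are higher on all 3 shExosc8 arrays, Max and Mga are lower, and the Mycl and Mxi1 probes were not well above background on any array.

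Among the genes for Myc proteins, Mycn was near background in shControl and clearly measured in shExosc8, and Myc lay slightly lower in shExosc8 without passing the threshold. Myc, the widely expressed founder of the family, stood at 0.79, 0.81 and 0.71 on shExosc8 arrays 1, 2 and 3 and at 0.85, 1.05 and 1.19 on the shControl arrays. All 3 shExosc8 values lay below all 3 controls, by as little as the distance from 0.81 to 0.85. The mean difference was -0.26 ± 0.12 (SE, n = 3 per group), 83.8% of the control with a 95% interval of 68.2% to 103%, and it passed in 1 of 17 alternative fits, the one that took the 75th percentile over all probes (-0.40). That scaling moved the median of all names from -0.06 to -0.21. The Myc probe lies at chr15:61821417-61821476 on the plus strand of mm9, the build of the files.

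Mycn, the family member best known from the embryo, from neural tissue and from neuroblastoma, stood at -1.06, -0.94 and -1.87 on the shExosc8 arrays and at -8.04, -7.17 and -7.12 on the shControl arrays. The groups lay far apart, with shExosc8 replicate 3 the lowest of its group. As deposited, the spot intensities were 2411, 1735 and 1355 in shExosc8 and 23.1, 42.6 and 44.9 in shControl. The spot was well above background on all 3 shExosc8 arrays and on 1 of 3 control arrays, replicate 2, so the control level is poorly fixed. The log2 difference was 6.15 ± 0.34 (SE, n = 3 per group), a fold of 71.2 on this scale, which is no exact size because it is taken against a control near background.

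The size of the Mycn difference depended on how background was handled. With normexp background correction, which adds an offset of 50 to every spot, it was 4.44 with the 75th percentile, a fold of 21.7, and 4.30 with quantile normalization, a fold of 19.7, and in the authors' deposited table the log fold change was 5.09. With only probes above background on all 6 arrays Mycn gave no value. Within the slide columns that held both groups, Mycn differed by 7.10 in column 2 and 5.31 in column 3. Its probe lies at chr12:12943193-12943252 on the minus strand of mm9. In bulk RNA such as this, more cells that express a gene and more of its RNA per cell cannot be told apart.

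The Mycn promoter is shown because Mycn had the largest difference in the network. It covers 250 bases before the RefSeq start, on the minus strand of GRCm38.p6 at chr12:12941837-12942086, with each match to the E2F-type motif TTTGGCGC in capitals.
Mycn: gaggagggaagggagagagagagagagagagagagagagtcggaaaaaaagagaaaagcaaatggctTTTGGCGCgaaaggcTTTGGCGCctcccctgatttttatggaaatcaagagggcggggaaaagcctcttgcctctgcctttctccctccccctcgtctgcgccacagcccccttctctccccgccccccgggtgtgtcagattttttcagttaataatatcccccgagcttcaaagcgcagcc
The matches begin 183 and 168 bases before the start, both on the transcript's strand, and do not overlap. The motif, searched on both strands, was present in 0.514% of 32851 RefSeq windows of the same 300 bases. It was in no other member's window, and Myc had no window to search. The letters say nothing of what binds there.

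Mycl, the third Myc gene, was not well above background on any of the 6 arrays. Its values were -9.11, -8.80 and -8.87 in shExosc8 and -9.75, -9.72 and -7.23 in shControl. They overlap and have no meaning as levels.

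Max, the partner shared by the Myc, Mxd, Mnt and Mga proteins, was lower in shExosc8. Its levels were 0.33, 0.21 and 0.67 on the shExosc8 arrays and 0.89, 0.86 and 0.94 on the shControl arrays. The controls lay close together and the shExosc8 arrays spread below them, with replicate 3 nearest. The mean was 71.1% of the control, with a 95% interval of 55.8% to 90.5%, a log2 difference of -0.49 ± 0.14 (SE, n = 3 per group). Max passed the threshold in 8 of 17 alternative fits and was below 0 in all 17. With the slide column as a block the difference was -0.43 and did not pass, and within columns 2 and 3 it was -0.68 and -0.19. The probe lies at chr12:78038272-78038331 on the minus strand of mm9.

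Of the antagonists that pair with Max and were measured above background, Mxd1 was the one that was higher. Its probe 1, at chr6:86599053-86599112 on the minus strand of mm9, stood at 3.12, 3.59 and 2.41 in shExosc8 and at 0.94, 1.23 and 0.17 in shControl. Its probe 2, at chr6:86597190-86597249, stood at 1.94, 2.10 and 1.56 in shExosc8 and at 0.27, 0.37 and -0.47 in shControl. On both probes the lowest shExosc8 array was above the highest control, replicate 2 was the highest of each group and replicate 3 the lowest. The log2 difference was 2.26 ± 0.38 (SE, n = 3 per group) for probe 1, a fold of 4.80 with a 95% interval of 2.53 to 9.08. For probe 2 it was 1.81 ± 0.26, a fold of 3.51 with an interval of 2.26 to 5.44. The authors' deposited table gives 2.31 and 1.80. Both probes passed the threshold, 27.8% of the 24836 probes having done so in either direction, and 492 other names had a larger difference than Mxd1.

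With the slide column as a block, where shExosc8 replicate 1 and shControl replicate 3 each lie alone in a column and carry no weight in the group difference, Mxd1 was 1.92 and 1.51 on its probes and lost its call. Within column 2 the Mxd1 difference was 2.65 on probe 1 and 1.83 on probe 2, and within column 3 it was 1.18 and 1.19. Mycn was at 6.20 in that fit.

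The Mxd1 promoter is shown because Mxd1 was the other measured member that was higher. It covers the 250 bases before the RefSeq start, on the minus strand of GRCm38.p6 at chr6:86669160-86669409, and is 78.4% G and C, against 54.8% for the stretch of Mycn. None of the motifs searched on both strands (the E2F-type motif above and the E-box and GATA-type motifs spelled out further on) has a match in it, so nothing is in capitals.
Mxd1: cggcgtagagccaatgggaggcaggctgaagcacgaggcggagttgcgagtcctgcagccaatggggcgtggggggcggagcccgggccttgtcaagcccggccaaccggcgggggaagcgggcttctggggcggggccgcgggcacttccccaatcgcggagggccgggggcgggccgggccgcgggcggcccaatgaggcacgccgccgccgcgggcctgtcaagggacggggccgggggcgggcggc

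Mxd3, which is known as the Mxd protein of dividing progenitors, stood at -2.58, -2.57 and -2.55 in shExosc8 and at -2.43, -2.17 and -2.68 in shControl. The shExosc8 values fell inside the control range. The difference was -0.14 ± 0.15 (SE, n = 3 per group), and the mean was 90.9% of the control with a 95% interval of 70.8% to 117%.

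Mxd4, an Mxd protein of differentiating and resting cells, stood at -2.83, -2.91 and -3.84 in shExosc8 and at -2.83, -2.93 and -3.52 in shControl on its probe 1. Replicate 3 was low in both groups and the groups overlap almost fully. The difference was -0.10 ± 0.32 (SE, n = 3 per group), with a 95% interval of 54.5% to 160% of the control, so neither direction can be given. Its probe 2, which overlaps probe 1 on the genome, was well above background on 1 shExosc8 and 2 shControl arrays and was left out.

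Mxi1, an Mxd family protein first found as an interactor of Max, was not well above background on any of the 6 arrays. It stood at -8.19, -7.21 and -8.71 in shExosc8 and at -9.92, -9.05 and -9.37 in shControl. These values lie near the limit of the arrays and give no fold.

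Mnt, the most widely expressed antagonist of Myc, stood at 0.71, 0.46 and 0.95 in shExosc8 and at 1.11, 1.08 and 0.90 in shControl. shExosc8 replicate 3 lay above the lowest control, and the other shExosc8 arrays below all 3. The difference was -0.33 ± 0.16 (SE, n = 3 per group), 79.8% of the control with a 95% interval of 61.5% to 104%, and did not pass. It passed in 3 of 17 alternative fits, both normexp fits (-0.43 and -0.42) and the fit without shExosc8 replicate 3 (-0.45).

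Mga was lower in shExosc8, at -3.97, -3.85 and -3.62 against -3.33, -3.21 and -3.02 in shControl. The groups did not overlap, and each group's arrays lay within a narrow range. The mean was 64.8% of the control, with a 95% interval of 51.1% to 82.1%, a log2 difference of -0.63 ± 0.14 (SE, n = 3 per group). Mga passed in 9 of 17 alternative fits and was below 0 in all 17. With the slide column as a block the difference was -0.47 and did not pass, and within columns 2 and 3 it was -0.52 and -0.41. The probe lies at chr2:119792479-119792538 on the plus strand of mm9.

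**Figure D2:**
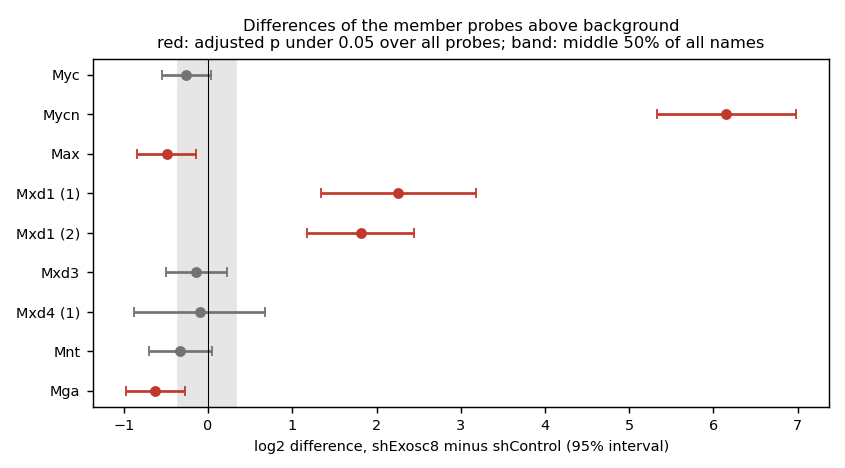
Log2 difference between the group means, shExosc8 minus shControl (horizontal axis), of the 9 member probes that passed the filter on dim probes, with 95% intervals. Red marks probes past the threshold over all probes, and the grey band runs from the lower to the upper quartile of all names, -0.36 to 0.33. Mycn at 6.15 and Mxd1 at 2.26 and 1.81 lie to the right of the band, and the other members lie between -0.63 and -0.10. The Mycn interval does not reach the values of 4.44 and 4.30 that normexp gave.

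The authors' deposited table put Mycn and both Mxd1 probes past an adjusted p of 0.05 and left Max (-0.47) and Mga (-0.71) short of it. On 7 of the 9 member probes, shExosc8 replicate 3 was the array of its group nearest to the control mean. The same held for 56.3% of all names and for 70.7% of the names past the threshold.

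**Figure D3:**
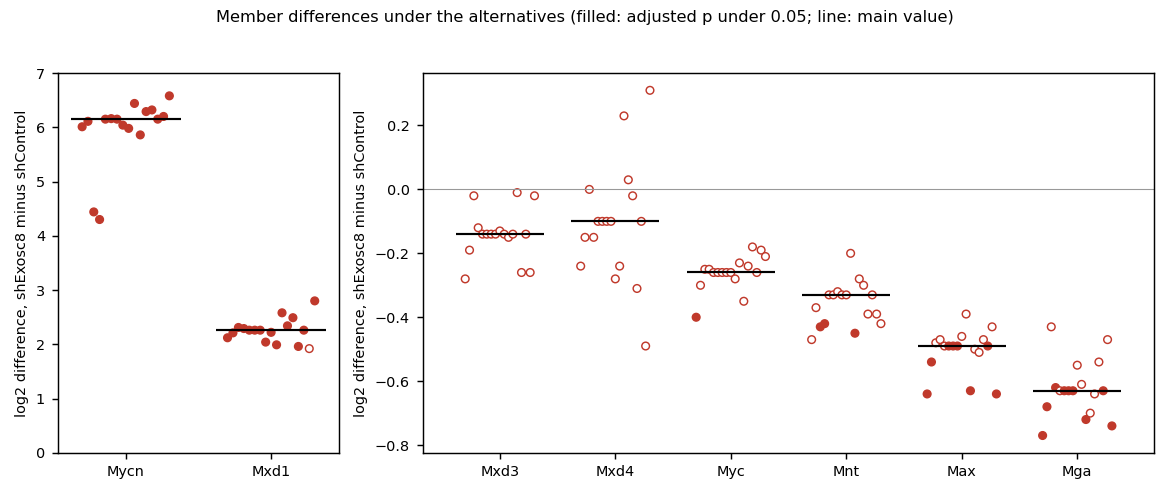
Log2 difference of each member in the fit (vertical axis, shExosc8 minus shControl) under the alternative scalings, background corrections, filters, left-out arrays and blocks, 1 point each. Filled points passed the threshold and the line is the value in the text. Mycn ranges from 4.30 to 6.58 and Mxd1 from 1.92 to 2.80, while Max and Mga are below 0 throughout with filled and open points mixed and Mxd4 lies on both sides of 0.

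RefSeq promoter windows (250 bases before to 50 after the start) were held for 9 members, all but Myc, in 11 windows. The E-box CACGTG, which reads the same on both strands and is the site Myc and Max dimers bind, was found in 3 of them, those of Max, Mnt and Mxd4, and in 7.15% of all 32851 windows. The 3 stretches are shown because they place the network's own binding sequence at its own genes, with the E-box in capitals and the transcript's strand of GRCm38.p6 throughout.
Max: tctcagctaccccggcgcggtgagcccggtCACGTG
Mnt: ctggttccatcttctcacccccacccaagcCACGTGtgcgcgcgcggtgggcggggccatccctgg
Mxd4: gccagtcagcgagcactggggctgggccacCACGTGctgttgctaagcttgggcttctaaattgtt
They lie at chr12:76962246-76962281 (minus strand), chr11:74830771-74830836 (plus strand) and chr5:34187894-34187959 (minus strand). The E-box began 3 bases before the start in Max, 123 before it in Mnt and 219 before it in Mxd4. The GATA-type motif AGATAA, on either strand, had no match in the members' windows and was present in 11.2% of all windows. Its other form, TGATAA, had none either and was present in 9.05%. A match is a run of letters and no binding was measured. Of these genes, Max was past the threshold and Mnt and Mxd4 were not.

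For Myc and Mycn, the names with the nearest pattern were taken as those with the smallest root mean square distance of log2 levels over the 6 arrays, each minus its control mean. For Myc these were Ints2, a subunit of the Integrator complex, at 0.04, Cipc, a Clock-interacting protein, at 0.04, and Ttbk2, a tubulin kinase, at 0.05. Each of the 3 differed by -0.26 to -0.29 between the groups. For Mycn they were Ccn4, a secreted matrix protein, at 0.29, Cnrip1, which binds a cannabinoid receptor, at 0.37, and Dusp13, a phosphatase, at 0.48. The log2 differences of the latter were 6.18, 5.84 and 5.87, and none of the 3 was well above background on any control array, so these values carry no exact size.

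Genes of the network beyond its members were followed in 6 lists by role. In the branch that pairs with Mlx in place of Max, where Mlxip and Mlxipl sense glucose products, 0 of 7 measured genes rose and 1 (14.3%) fell, where 16.0% of all names rose and 13.8% fell. That gene was Mlxip (-0.48 ± 0.13, SE, limma adjusted p = 0.0346). Pklr, the red cell pyruvate kinase, was at -0.65, Arrdc4 at -0.60 and Mlxipl at -0.17, and none of these passed. The list's median was -0.17, against -0.06 for all names. Without shExosc8 replicate 3 there were 2 that fell, without shControl replicate 2 there was 1, and without any other single array 0.

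Of 14 Sin3 and histone deacetylase genes, 1 (7.14%) rose and 2 (14.3%) fell, with a median of -0.15. Of all names, 16.0% rose and 13.8% fell. Hdac1 (-0.40 ± 0.10, SE, limma adjusted p = 0.0320) and Hdac2 (-0.44 ± 0.12, adjusted p = 0.0345), the deacetylases of the complex, fell. The scaffold Sin3b rose (0.40 ± 0.11, adjusted p = 0.0369), and Sap18 was at -0.50 without passing. Without any 1 array other than shExosc8 replicate 3, none of the 14 passed, and with normexp and the 75th percentile none did. Without shExosc8 replicate 3, 1 rose and 4 fell.

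Among 12 measured coactivators of Myc, 0 rose and 1 (8.33%) fell, where 16.0% of all names rose and 13.8% fell. The one that fell was the acetyltransferase Kat2a (-0.54 ± 0.15, SE, limma adjusted p = 0.0434). Mycbp at -0.42, the helicase Ruvbl2 at -0.72 and Smarcb1 at -0.33 did not pass. The median was -0.28, and 11 of the 12 were below 0. Without any 1 array other than shExosc8 replicate 3 none passed, and without that array 1 rose and 4 fell. Zbtb17, the partner through which Myc represses genes, did not pass the filter on dim probes.

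Of 17 measured genes for enzymes and other proteins of Myc phosphorylation and turnover, 2 (11.8%) rose and 6 (35.3%) fell. Of all names, 16.0% rose and 13.8% fell. Fbxw7, the ubiquitin ligase subunit that recognises phosphorylated Myc, fell to 49.4% of its control at -1.02 ± 0.16 (SE, n = 3 per group, limma adjusted p = 0.00753). The deubiquitinases that oppose it, Usp28 (-0.76 ± 0.14, adjusted p = 0.0120) and Usp36 (-0.59 ± 0.11, adjusted p = 0.0115), fell as well. Ppp2r5a, a phosphatase subunit that acts on Myc, rose by 0.90 ± 0.15 (adjusted p = 0.00903). Fbxw7, Usp28 and Ppp2r5a kept their calls in all 6 fits that left out 1 array, and Usp36 in 5. The median was -0.22. With the slide column as a block none of the 17 passed, and without any 1 array other than shExosc8 replicate 3, 1 to 2 rose and 2 to 4 fell, against 3 and 6 without that array.

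Of the genes widely described as induced by Myc, 17 of 53 measured genes fell, 0 rose, and 51 were below 0. The median was -0.42, against -0.06 for all names, of which 13.8% fell. Ppan (-0.67 ± 0.11, SE, limma adjusted p = 0.00811) and Rrs1 (-0.82 ± 0.14, adjusted p = 0.00981), both ribosome assembly factors, fell and kept their calls in all 6 fits that left out 1 array. Tfap4, a transcription factor and textbook Myc target (-0.61 ± 0.13, adjusted p = 0.0170), and the prohibitin Phb (-0.55 ± 0.12, adjusted p = 0.0192) fell too, with calls in 3 and 2 of those fits. The number that fell was 38 without shExosc8 replicate 3 and 2 to 6 without any other single array, and the median stayed between -0.33 and -0.47 in these fits. It was 30 with the percentile over all probes, and 0 with the slide column as a block or with no filter on dim probes.

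Of the genes described as repressed by Myc, 11 of 19 measured genes rose and 1 fell, with a median of 1.38. The share of all names that rose was 16.0%. Ndrg2 rose by 3.78 ± 0.15 (SE, limma adjusted p = 0.000343) and Ndrg1, which is named as a gene downstream of N-myc, by 2.83 ± 0.20 (adjusted p = 0.000615). The matrix protein Thbs1 rose by 4.13 ± 0.32 (adjusted p = 0.000806) and the leukocyte integrin subunit Itgal by 2.02 ± 0.14 (adjusted p = 0.000583). All 4 kept their calls in each of the 6 fits that left out 1 array and with the slide column as a block. The count was 9 to 12 in the fits that left out 1 array and 6 with the slide column as a block. The lists were drawn up with earlier results of these data known, so they are no independent evidence of a direction.

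**Figure D4:**
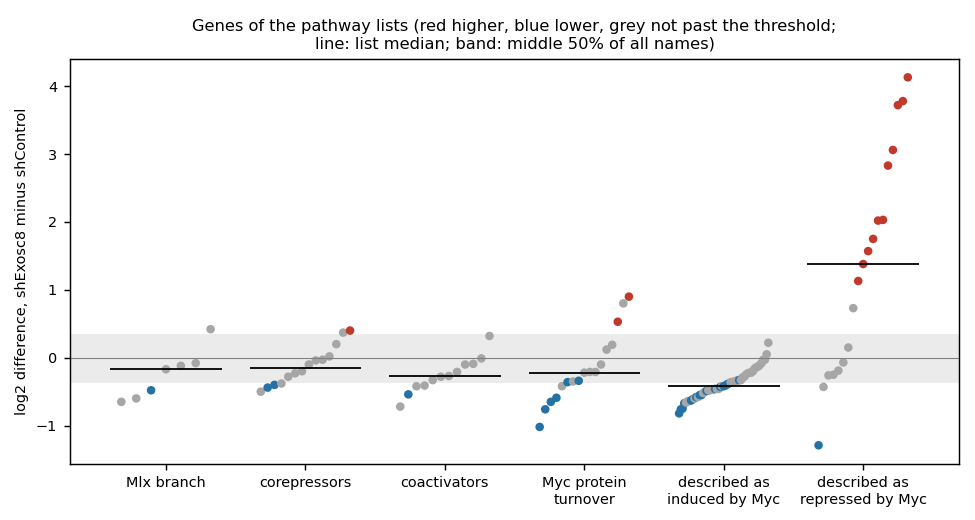
Log2 difference, shExosc8 minus shControl (vertical axis), of each measured gene in the 6 lists, sorted within a list, with a line at the list's median. Red genes rose, blue genes fell and grey genes did not pass, and the grey band runs between the quartiles of all names. The genes described as repressed by Myc reach 4.13 at the top, and those described as induced lie mostly below 0 with a median of -0.42.

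Markers of other blood cells moved with these results, and their counts stand beside the 16.0% of all names that rose and the 13.8% that fell. All 10 megakaryocyte markers rose, and their signal, summed as percent of each array's 75th percentile, ranged from 5200 to 7070 in shExosc8 and from 558 to 781 in shControl. Such a sum leans on its brightest probes and takes in dim ones. It is read only between the groups within 1 list and is no amount of a cell type. All 10 neutrophil and monocyte markers rose, with sums of 4670 to 6160 and 1290 to 1590. Of the 10 erythroid markers, the defining cells of the labels, all were measured, 4 rose and 1 fell, and the sums were 14100 to 19300 and 7640 to 11600. Among macrophage markers 4 of 6 measured rose (sums of 99.9 to 128 and 44.8 to 59.8), with Vcam1 not above background on any array. Among mast cell and basophil markers 4 of 6 rose (321 to 480 and 105 to 166), with Fcer1a, Ms4a2 and Tpsab1 not above background. Of 6 hepatocyte markers 3 rose (67.4 to 90.0 and 45.2 to 52.9), with Apob not above background. Of 5 stem and progenitor markers 3 rose and 1 fell (181 to 278 and 201 to 354), with Hoxa10 not above background. Of 4 endothelial and stromal markers 1 rose and 1 fell (126 to 140 and 111 to 114), with Cdh5, Col1a1, Col3a1 and Lum not above background. Tfrc is in both the erythroid list and the list of genes described as induced by Myc, and Pdgfrb and Col1a1 are in both the stromal list and the list described as repressed. Gata2 is in both the mast cell and basophil list and the stem and progenitor list. The part of these cell types in the differences of Mycn, Mxd1 and the listed genes was not tested.

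Probes of other genes near the members were read in the same way, within 100 kb of a member's probe on mm9. Of 117 such probes 54 were measured, and 8 rose and 7 fell, against 14.7% and 13.1% of all probes. Near Myc, 0 of 7 passed. Near Mycn, the transcript 4930519A11Rik, 29.1 kb away at chr12:12914062-12914121, rose by 0.91 ± 0.14 (SE, limma adjusted p = 0.00688), while a lincRNA probe 23.4 kb away was at 0.04. Both lay below 1 on this scale, on which Mycn was at 6.15.

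Near Mxd1, the skin protease gene Asprv1, 18.8 kb away, rose by 1.81 ± 0.44 (SE, limma adjusted p = 0.0286), and a lincRNA probe 63.8 kb away on the strand of Mxd1 rose by 2.14 ± 0.39 (adjusted p = 0.0119). On the other side of Mxd1, Snrnp27 was at 0.02 and Gmcl1 at -0.29 and -0.55, and Anxa4, an annexin 88.8 kb away, fell by 0.57 ± 0.15 (adjusted p = 0.0335). Both rises lay on 1 side of Mxd1. The lincRNA probe kept its call in 5 of 6 fits that left out 1 array, Asprv1 in 2 and Anxa4 in 1.

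Near Mxi1, itself not above background, 3 probes rose. The transcript 5830416P10Rik was not well above background on any control array and was at least 2.67-fold higher in shExosc8. It passed the filter on dim probes only through its shExosc8 arrays and so had to differ. Mirt1, a noncoding transcript, rose by 0.84 ± 0.16 (SE, adjusted p = 0.0138) and a lincRNA probe 84.4 kb away by 0.81 ± 0.18 (adjusted p = 0.0240).

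Near Mxd3, both probes of Nsd1, a histone methyltransferase, fell, by 0.66 ± 0.11 (SE, limma adjusted p = 0.00833) and 0.41 ± 0.11 (adjusted p = 0.0412), and near Mnt 1 of 2 probes of the ribosome factor Tsr1 fell (-0.46 ± 0.12, adjusted p = 0.0359). Near Mga, 3 probes of 1 lincRNA region went in different directions, at 0.70, -0.51 and -1.04, and all passed. The probe at -1.04 kept its call in all 6 fits that left out 1 array, and those at 0.70 and -0.51 in 1 each. Jmjd7, a hydroxylase, fell by 0.93 ± 0.19 (adjusted p = 0.0168) near Mga. The only measured probe of Sptbn5, a spectrin, rose there by 1.78 ± 0.36 (adjusted p = 0.0173), and its other probes did not pass the filter on dim probes. In the fits that left out 1 array, Jmjd7 and the Sptbn5 probe kept their calls in 2 of 6. Tsr1 kept its call in 1, and the Nsd1 probes kept theirs in 6 and 2. The Sptbn5 probe and the lincRNA probes that rose near Mxd1 and Mxi1 were above background on 2 of 3 control arrays and so entered the fit through shExosc8. None of the neighbours measured near Mycl, Max or Mxd4 passed. The number of flanking probes past the threshold was 6 without shExosc8 replicate 1, 7 without shExosc8 replicate 2 and 21 without shExosc8 replicate 3. It was 6 without shControl replicate 1, 10 without shControl replicate 2 and 7 without shControl replicate 3. With the slide column as a block it was 0, where 408 probes of the whole array passed.

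**Figure D5:**
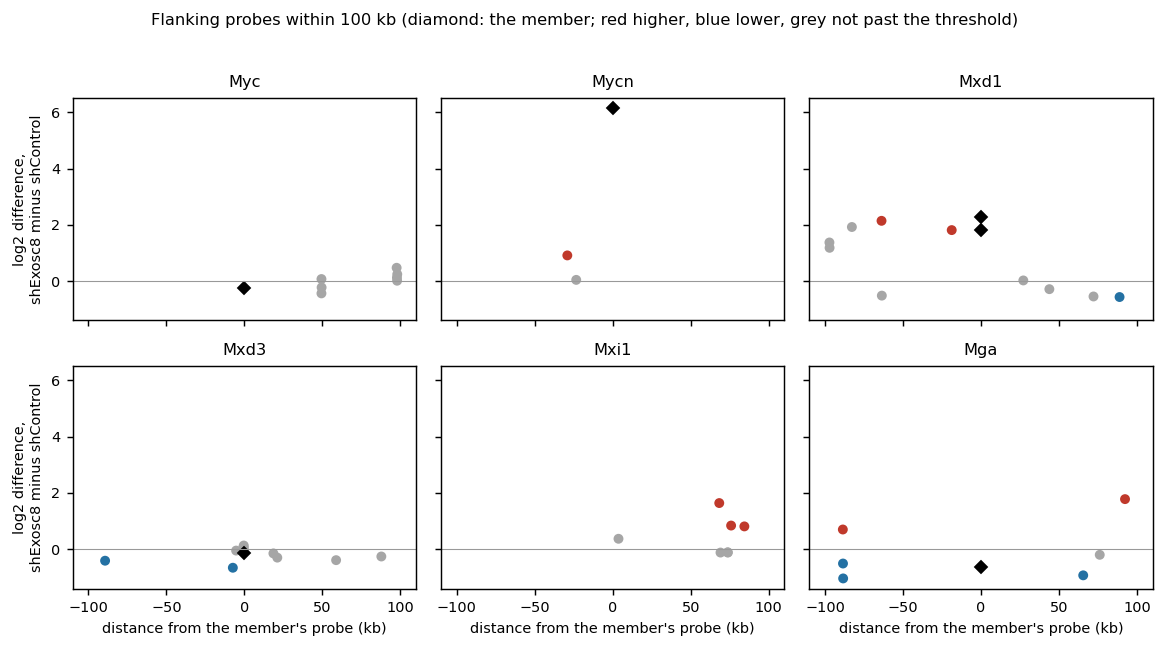
Log2 difference, shExosc8 minus shControl (vertical axis), of measured probes within 100 kb of 6 of the members against distance from the member's probe in kb (horizontal axis, rising along the chromosome). Black diamonds are the member's own probes (Mxi1 has none above background), red probes rose, blue probes fell and grey probes did not pass. The Mycn diamond at 6.15 stands alone, and the Mxd1 diamonds have red probes on their left, up to 63.8 kb away.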

How the data were processed

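Per the file headers, spot intensity was deposited after background subtraction in Agilent Feature Extraction 10.7.3.1, and probes are placed on mm9. A further deposited table repeats these intensities and adds the authors' log2 fold changes and p-values, for which the submitters' processing notes name limma and no source used here names a normalization.

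Control spots (3671 of 62976) and spots flagged as non-uniform or outlying were left out, and spots of 1 probe were averaged. The log2 signal minus each array's 75th percentile, taken over the 21615 probes well above background on all 6 arrays, was compared in R 4.3.3 with two-sided tests from limma 3.58.1 (eBayes after lmFit), adjusted by Benjamini-Hochberg over all names or all probes, at a threshold of 0.05. The probe with the highest mean stood for a name. Names came from RefSeq (GRCm38.p6) for 27495 probes by accession and 3549 by symbol, and 24616 kept the file's name. An "at least" fold sets the bright group's mean against the higher of the probe's own signal and the lowest signal above background on each control array. The main fits did not pair the samples by replicate number, since no source used here says whether the numbers are a pairing.

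The members, the lists and the rule for named genes were chosen with earlier results of these data known. Named were all members, the 4 genes with the smallest p in each list, flanking probes past the threshold and the 3 nearest names for Myc and Mycn. Others were chosen after their values were seen. The number of arrays limits the precision, and with 3 against 3 an exact permutation test cannot go below p = 0.1. Alternatives were other scalings, normexp with an offset of 50, other filters, the mean of a name's probes, flagged spots kept, left-out arrays and blocks for replicate number and slide column.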

Additional observations from a re-analysis of the deposited data

How the results depend on the processing

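The number of names past the threshold, 5439 in the text, was 2347 to 8328 with 1 array left out, 1815 with no filter on dim probes and 537 with the slide column as a block. For probes, 6908 became 2862 to 10730, 1708 and 408 under the same changes. The 4 members past the threshold became 2 to 5 with 1 array left out, 2 with no filter and 1 with the slide column as a block. The 42 listed genes past the threshold became 15 to 74, 9 and 6, and 64 with the percentile over all probes. Genes described as induced by Myc that fell numbered 17, and 2 to 38 with 1 array left out, 30 with the percentile over all probes, 0 with no filter, 0 with the slide column as a block and 33 in a fit, chosen after seeing the data, that left out both shExosc8 replicate 3 and shControl replicate 2. Genes described as repressed by Myc that rose numbered 11, and 6 with the slide column as a block. The 15 flanking probes became 6 to 21 with 1 array left out, 2 with no filter and 0 with the slide column as a block. Exosc8 was at -1.03 with that block and lost its call. That block leaves 1 residual degree of freedom and weighs 4 arrays.

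Mxd4 (-0.10) lay between -0.31 and 0.23 with 1 array left out, above 0 without shExosc8 replicate 3 (0.23) or shControl replicate 1 (0.03). It was 0.00 with normexp before the 75th percentile and 0.31 with both shExosc8 replicate 3 and shControl replicate 2 left out, and the cause was not tested. With only probes above background on all 6 arrays, Mycn had no value. Of the names past the threshold, 53.7% were higher in shExosc8, and 37.1% when the percentile covered all probes, 66.9% after normexp with the percentile kept and 79.8% with no filter. Samples with the same replicate number deviated from their group means together at r = 0.036, 0.219 and 0.303 over all names. For samples of different groups and different numbers r ranged from -0.261 to 0.166. These values do not settle whether the numbers are a pairing. The main fits took none because no source used here states one. The replicate block gave 5633 names, 7101 probes, 4 members, 41 listed genes, 15 flanking probes and Exosc8 at -1.14, and changed no member's call. These are counts and not the same genes throughout: of the 14 Sin3 and histone deacetylase genes 0 rose and 0 fell with that block, so Hdac1, Hdac2 and Sin3b lost their calls.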

Other observations

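Relatives and partners of the network that were in none of the lists were read after their values were seen. Of the Ndrg family, the name of which stands for N-myc downstream regulated gene, Ndrg4 rose with Ndrg1 and Ndrg2, by 2.27 ± 0.33 (SE, n = 3 per group, limma adjusted p = 0.00562), and its levels were -0.87, -0.84 and -1.89 in shExosc8 and -3.39, -3.18 and -3.84 in shControl. Ndrg3 was at -0.19 ± 0.11 and did not pass. Myct1, a gene first described as a Myc target of blood cells, rose by 2.48 ± 0.20 (adjusted p = 0.000853). Nmi, which binds Myc and Mycn proteins, fell by 0.42 ± 0.11 (adjusted p = 0.0353).

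Genes known for sitting beside Myc or Mycn were read as well. Pvt1, the noncoding gene beside Myc, was at 0.16 ± 0.15 (SE, n = 3 per group), and another measured probe of it was at -0.22. Ddx1, which is often amplified together with Mycn in tumours, was at -0.35 ± 0.11. None of these passed.

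Of 1177 tested names with CACGTG in a RefSeq promoter window, 13.3% rose and 18.7% fell, with a median log2 difference of -0.16. Of 8967 names whose windows lacked it, 16.7% rose and 16.0% fell, with a median of -0.10. The median share of G and C in the windows was 61.3% and 60.0%, and no test was made of the difference.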
